A study of Mus musculus with 6 samples.

Results

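Adipogenic transcription factors are the DNA-binding proteins that turn precursor cells of fat tissue into adipocytes and then keep adipocyte genes expressed. The group examined here holds 10 genes, Pparg, Cebpa, Cebpd, Rxra, Klf15, Klf4, Klf5, Ebf1, Zfp423 and Gata2, each with every probe whose accession is a RefSeq transcript of that gene. The array carried 13 probes for them, 3 for Zfp423, 2 for Rxra and 1 for each of the others, among the 21368 genes that have a named probe. All 13 were well above background on all 6 arrays and passed the filter on dim probes, as did a probe of 15307 genes in all. The genes were compared between 3 WT and 3 Zip13-KO samples of inguinal white adipose tissue (iWAT). The samples came from littermate mice of 10 weeks on a C57BL/6J background that were all fed powdered food. Zip13-KO mice carry a germline knockout of Slc39a13, the gene of the zinc transporter ZIP13, in which exons 6 to 8 are replaced by a Neo cassette, so that every tissue lacks them and not only fat. The labels name a standard food and a high-fat food for the colony without saying which these mice received, and give neither their sex nor the number of mice behind a sample. The p-values therefore measure the spread between these samples, which may be in part technical.

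The factors act in sequence. C/EBPδ (Cebpd), C/EBPβ, KLF4 and KLF5 are induced early in differentiation and lead to PPARγ (Pparg) and C/EBPα (Cebpa), which maintain each other's expression and drive the genes of the mature adipocyte. PPARγ binds DNA as a heterodimer with RXRα (Rxra), while ZFP423 and EBF1 commit precursors to the fat lineage, KLF15 raises the insulin-responsive glucose transporter, and GATA2 holds precursors back from differentiation.

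All 6 arrays shared 1 slide and 1 scan. Between 58.8% and 63.2% of the spots of an array were well above background, and no spot was saturated. Slc39a13, the targeted gene, fell by 4.33 on the log2 scale (SE 0.17, limma adjusted p = 0.00123), from a log2 signal of 10.72 to 11.29 in WT to 6.47 to 6.76 in Zip13-KO samples. It was still above background on every Zip13-KO array, and whether its 1 probe lies within the deleted exons is not given in the sources used here. The 8 adipocyte markers were above background on all 6 arrays, as fits the labelled tissue.

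Signals are given on the log2 scale, quantile normalized between the arrays, and a change is the Zip13-KO mean minus the WT mean. A probe was called when its limma p, adjusted by Benjamini-Hochberg over all 33039 kept probes, was under 0.05 and its change over 1.5-fold, or 0.58 on the log2 scale. Pparg, Cebpa, Klf15 and Zfp423 rose in Zip13-KO iWAT, by 1.60-fold for the called Zfp423 probe to 2.18-fold for Pparg. Rxra on 1 of its 2 probes and Gata2 were higher with an adjusted p under 0.05, but by less than 1.5-fold. Cebpd, Klf5 and Ebf1 had changes between -0.09 and 0.06, and that of Klf4, -0.48, did not pass the test.

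Of the 13 probes, 4 were called higher, where 8.34% of all kept probes were, and 0 were called lower, where 7.12% were. With no regard to the fold threshold, 8 were higher at an adjusted p under 0.05, the same number as at an unadjusted p under 0.05, against 14.2% of all kept probes at the adjusted threshold. For 8 probes every Zip13-KO array lay above every WT array, as for 24.9% of all kept probes, and for 0 did every one lie below. The share of all kept probes with every Zip13-KO array below is not given here. No member probe was called lower by the t-test of the methods either, and 0 were lower at an unadjusted limma p under 0.05. The median change was 0.53, and that of all kept probes was -0.02. With 3 samples against 3, the exact permutation test of a single probe cannot give a two-sided p below 0.1, and it gave 0.1 for each of these 8.

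**Figure D1:**
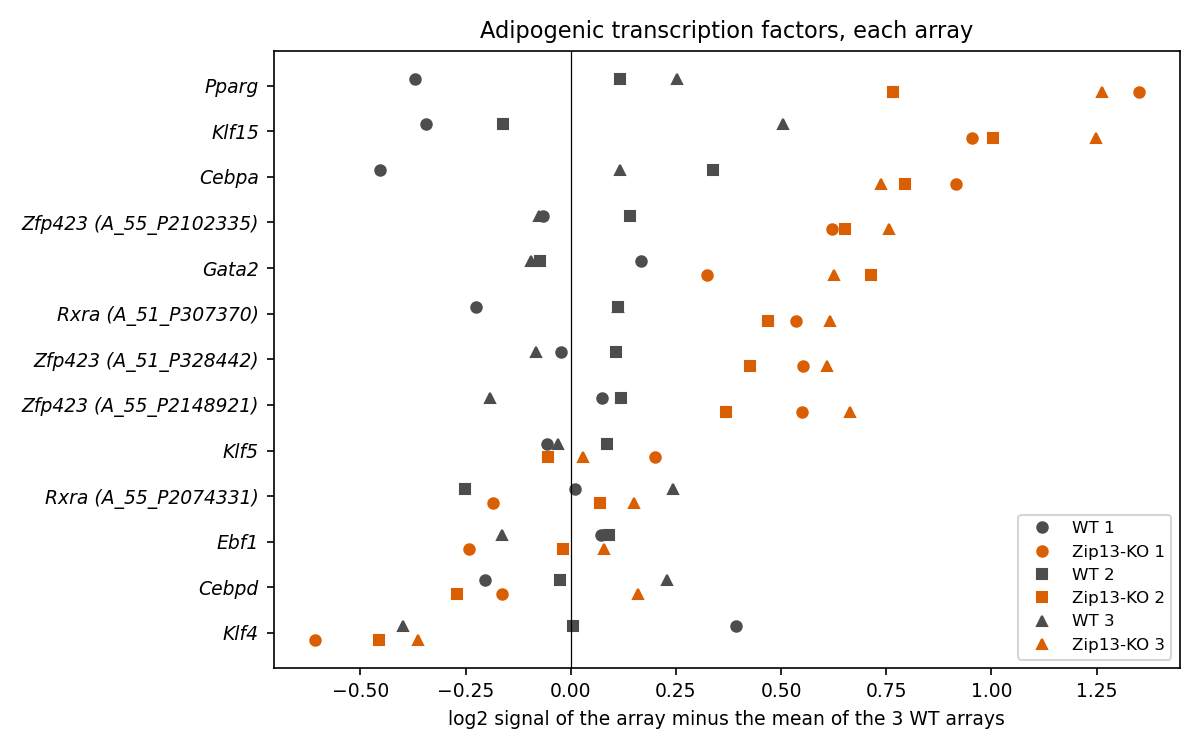
Log2 signal of each of the 13 probes on each array, as the difference from the mean of the 3 WT arrays of that probe, with WT in grey, Zip13-KO in orange and the replicate number as the symbol. From Pparg down to the third Zfp423 probe, 8 probes have all 3 Zip13-KO arrays to the right of all WT arrays, and the other 5 overlap.

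The windows upstream of every start site in the table are shown for the 4 genes that rose. The RefSeq promoter table of GRCm38.p6 held 14 start sites for 8 of the 10 genes, Cebpd and Klf5 not among them. Each line gives the 250 bases before a start, read 5′ to 3′ along the gene, with capitals where the C/EBP motif TTGCNNAA or the nuclear receptor element AGGTCA matched on either strand.
Pparg, the first start, chr6:115360894-115361143, plus strand: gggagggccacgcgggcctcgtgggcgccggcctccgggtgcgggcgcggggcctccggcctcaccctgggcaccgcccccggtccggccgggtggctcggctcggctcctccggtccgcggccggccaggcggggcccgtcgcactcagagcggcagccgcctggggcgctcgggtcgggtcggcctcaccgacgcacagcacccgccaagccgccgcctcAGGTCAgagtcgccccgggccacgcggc
Pparg, the second start, chr6:115362099-115362348, plus strand: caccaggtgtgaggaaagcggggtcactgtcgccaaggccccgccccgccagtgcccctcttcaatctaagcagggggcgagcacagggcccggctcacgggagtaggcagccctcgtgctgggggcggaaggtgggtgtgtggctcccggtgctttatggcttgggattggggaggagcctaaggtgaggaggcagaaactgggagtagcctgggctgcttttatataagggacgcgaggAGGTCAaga
Pparg, the third start, chr6:115421816-115422065, plus strand: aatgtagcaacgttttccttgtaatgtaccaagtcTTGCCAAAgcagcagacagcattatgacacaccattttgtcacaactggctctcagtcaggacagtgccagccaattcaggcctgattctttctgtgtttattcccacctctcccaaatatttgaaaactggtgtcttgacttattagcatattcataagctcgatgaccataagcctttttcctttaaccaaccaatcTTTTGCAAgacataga
Cebpa, chr7:35119043-35119292, plus strand: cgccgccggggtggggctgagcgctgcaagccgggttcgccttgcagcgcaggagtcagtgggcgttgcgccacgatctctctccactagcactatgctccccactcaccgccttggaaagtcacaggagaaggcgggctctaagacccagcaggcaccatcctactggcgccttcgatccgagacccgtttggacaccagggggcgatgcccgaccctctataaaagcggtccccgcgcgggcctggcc
Klf15, chr6:90462326-90462575, plus strand: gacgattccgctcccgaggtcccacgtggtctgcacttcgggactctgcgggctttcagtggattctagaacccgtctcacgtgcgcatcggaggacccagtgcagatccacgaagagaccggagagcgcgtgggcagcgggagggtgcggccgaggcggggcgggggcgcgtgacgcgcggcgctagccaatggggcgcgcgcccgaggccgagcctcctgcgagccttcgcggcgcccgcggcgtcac
Zfp423, the first start, chr8:87804440-87804689, minus strand: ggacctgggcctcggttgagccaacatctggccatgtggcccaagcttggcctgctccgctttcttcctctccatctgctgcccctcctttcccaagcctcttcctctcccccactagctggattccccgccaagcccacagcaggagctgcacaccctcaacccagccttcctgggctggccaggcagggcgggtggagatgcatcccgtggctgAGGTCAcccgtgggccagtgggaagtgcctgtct
Zfp423, the second start, chr8:87959596-87959845, minus strand: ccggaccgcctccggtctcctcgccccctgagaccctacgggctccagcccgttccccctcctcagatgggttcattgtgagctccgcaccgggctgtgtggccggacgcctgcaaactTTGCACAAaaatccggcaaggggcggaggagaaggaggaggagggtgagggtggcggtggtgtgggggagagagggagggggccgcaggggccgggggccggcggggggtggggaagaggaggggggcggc
C/EBP matches stood before the third start of Pparg, 215 and 16 bases upstream, and before the second start of Zfp423, 131 bases upstream. Among the 14 member windows 2 held this motif, while 9.56% of the 32851 windows of the table did. AGGTCA was found in 4 of the 14, before the first and the second start of Pparg, the second of Rxra and the first of Zfp423, against 14% of all windows. Neither motif matched before Cebpa or Klf15, whose windows hold 1 CACCC match each. The GC box GGGCGG was present in 9 of the 14 windows and CACCC in 11, against 32.7% and 52% of all windows, and the GATA motif AGATAA in 0, against 9.99%. A match may share bases with that of another motif, and it describes letters only, not binding.

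Pparg encodes the nuclear receptor that is both needed and sufficient for adipocyte formation. Its probe, A_51_P106799 for transcript NM_011146, is spotted 10 times on each array, and the spots were averaged. The log2 signal was 12.57, 13.06 and 13.19 in WT samples 1 to 3 and 14.29, 13.71 and 14.20 in Zip13-KO samples 1 to 3. All Zip13-KO samples were above all WT samples, with WT 1 the lowest WT sample and Zip13-KO 2 the Zip13-KO sample nearest to WT. Pparg rose by 1.13 (SE 0.22, 95% interval 0.59 to 1.66, limma adjusted p = 0.0178), or 2.18-fold. The change was 1.01 without Zip13-KO replicate 1 (adjusted p = 0.0618) and 1.05 without replicate 3 (adjusted p = 0.0539), so the call rested on both, and it was kept without any other single array. The probe does not tell which of the Pparg promoters the RNA came from.

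RXRα, the partner of PPARγ on DNA, was read by 2 probes for the same transcript, NM_011305. On A_51_P307370 the log2 signal was 7.18, 7.51 and 7.51 in WT and 7.93, 7.87 and 8.02 in Zip13-KO samples, with no overlap. The change of 0.54 (SE 0.12, adjusted p = 0.0238) was under the fold threshold, which it passed without WT replicate 2 (0.59, adjusted p = 0.0442) or WT replicate 3 (0.60, adjusted p = 0.0384). Without WT replicate 1 it passed the test (0.43, adjusted p = 0.0302) but not the fold threshold. It did not pass the test without Zip13-KO replicate 1 (0.54, adjusted p = 0.074), 2 (0.577, adjusted p = 0.0649) or 3 (0.50, adjusted p = 0.0698). Nor did it without normalization between arrays (0.31, adjusted p = 0.11) or with the replicate block (adjusted p = 0.0578). The mean of the 2 probes changed by 0.28 (adjusted p = 0.0942). On A_55_P2074331 the values were 6.83, 6.57 and 7.06 in WT and 6.64, 6.89 and 6.97 in Zip13-KO samples. Here the genotypes overlapped throughout, with a change of 0.01 (95% interval -0.37 to 0.39, adjusted p = 0.962) whose sign turned under several settings. The difference between the changes of the probes was -0.53 (SE 0.18, 95% interval -0.96 to -0.10, unadjusted p = 0.024), which did not pass the test over all 5009 such probe pairs (limma adjusted p = 0.143), where 2.97% of pairs did. The files do not say where on the transcript either probe lies.

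C/EBPα, the partner of PPARγ in maintaining the adipocyte state, was read by A_52_P168567 (NM_007678). Its log2 signal was 12.71, 13.50 and 13.28 in WT and 14.08, 13.96 and 13.90 in Zip13-KO samples. The 3 Zip13-KO samples lay close together and above every WT sample, while WT 1 was the lowest, as it also was for Pparg and Klf15. Cebpa rose by 0.82 (SE 0.21, 95% interval 0.32 to 1.32, limma adjusted p = 0.0337), or 1.76-fold. Of 23 other settings 9 lost this call, and 6 lost that of Pparg. It was lost without Zip13-KO replicate 1 (0.77, adjusted p = 0.101), replicate 2 (0.82, adjusted p = 0.0904) or replicate 3 (0.85, adjusted p = 0.0723), without WT replicate 3 (0.88, adjusted p = 0.0629), and when all probes were tested without the filter (adjusted p = 0.079).

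C/EBPδ acts at the start of differentiation. The Cebpd probe A_51_P444447 (NM_007679) read 13.33, 13.51 and 13.77 in WT and 13.37, 13.27 and 13.70 in Zip13-KO samples, and the genotypes overlapped. The change was -0.09 (SE 0.16, 95% interval -0.48 to 0.30, adjusted p = 0.695), so that a rise as large as that of Cebpa lies outside the interval. Whether the changes of Cebpa and Cebpd differ was not tested.

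Of the Krüppel-like factors of the group, 1 was called. KLF15, which promotes the expression of the glucose transporter GLUT4 in adipocytes, was read by A_55_P2022049 (NM_023184) at 9.44, 9.63 and 10.29 in WT and 10.74, 10.79 and 11.04 in Zip13-KO samples. WT 3 was the highest WT sample and still below every Zip13-KO sample. Klf15 rose by 1.07 (SE 0.23, 95% interval 0.51 to 1.63, limma adjusted p = 0.0222), or 2.10-fold. The call was lost without WT replicate 2 (0.99, adjusted p = 0.062) and without each Zip13-KO replicate in turn (1.12, 1.097 and 0.98 without replicates 1, 2 and 3, adjusted p = 0.0614, 0.0658 and 0.0649), and without the filter on dim probes (adjusted p = 0.057).

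KLF4, an early inducer of C/EBPβ, was the lowest of the group. Its probe A_55_P2122020 (NM_010637) read 12.15, 11.76 and 11.35 in WT and 11.14, 11.30 and 11.39 in Zip13-KO samples, where WT 3 fell within the Zip13-KO range. The change was -0.48 (SE 0.20, 95% interval -0.97 to 0.02, adjusted p = 0.13) and did not pass the test. It passed without WT replicate 3 (-0.68, adjusted p = 0.041) and without normalization between arrays (-0.62, adjusted p = 0.0424), where the median of all probes was itself at -0.22. KLF5, an activator of the Pparg promoter early in differentiation, read 5.54, 5.68 and 5.56 in WT and 5.79, 5.54 and 5.62 in Zip13-KO samples on A_51_P507290 (NM_009769). Its genotypes overlapped, and the change was 0.06 (SE 0.10, 95% interval -0.18 to 0.30, adjusted p = 0.682).

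ZFP423, a zinc finger protein that marks committed preadipocytes and holds white adipocytes in the white state, was measured 3 times over. On A_55_P2102335 the log2 signal was 9.02, 9.23 and 9.02 in WT and 9.71, 9.74 and 9.85 in Zip13-KO samples. On A_51_P328442 it was 7.73, 7.86 and 7.67 against 8.30, 8.18 and 8.36, and on A_55_P2148921 it was 7.77, 7.81 and 7.50 against 8.24, 8.06 and 8.36. Each probe, all for transcript NM_033327, separated the genotypes. The WT samples had an SD of 0.10 to 0.17 over these probes, against 0.33 to 0.45 for Pparg, Cebpa and Klf15. The changes were 0.68 (SE 0.10, limma adjusted p = 0.00988), 0.53 (SE 0.09, adjusted p = 0.0145) and 0.53 (SE 0.13, adjusted p = 0.0286), of which the first passed the fold threshold. That first change was called without any 1 of the 6 arrays, and the second and the third differed from it by -0.15 each (adjusted p = 0.23 and 0.392 over all probe pairs). The 3 probes share their transcript and samples and are not independent evidence. With the mean of the 3 probes in place of each, the change was 0.578, just under the fold threshold (adjusted p = 0.00969).

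EBF1, a lineage factor that acts upstream of Pparg and Cebpa, read 11.16, 11.17 and 10.92 in WT and 10.84, 11.07 and 11.16 in Zip13-KO samples on A_55_P2065513 (NM_001290711). The genotypes overlapped and the change was -0.06 (SE 0.12, 95% interval -0.36 to 0.24, adjusted p = 0.735). GATA2, the repressor of adipocyte formation in the group, read 7.77, 7.53 and 7.51 in WT and 7.93, 8.32 and 8.23 in Zip13-KO samples on A_52_P233441 (NM_008090). Every Zip13-KO sample was above every WT sample, with Zip13-KO 1 nearest to them. The change of 0.55 (SE 0.14, 95% interval 0.22 to 0.88, adjusted p = 0.0311) was under the fold threshold, and passed it without WT replicate 1 (0.64, adjusted p = 0.0365) or Zip13-KO replicate 1 (0.67, adjusted p = 0.0442). The change did not pass the test without WT replicate 2 (0.52, adjusted p = 0.0834) or WT replicate 3 (0.51, adjusted p = 0.0789). Nor did it pass without Zip13-KO replicate 2 (0.48, adjusted p = 0.0954) or replicate 3 (0.52, adjusted p = 0.0852). It also failed without the filter (adjusted p = 0.0642), without normalization between arrays (0.0946) and with the replicate block (0.0892). With the deposited log2 values it passed (adjusted p = 0.0176).

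On the slide, the 3 WT arrays and Zip13-KO 1 stood in column 1 and Zip13-KO 2 and 3 in column 2. Within column 1, Zip13-KO 1 was above all 3 WT arrays for 9 of the 13 probes and below all of them for 2, Klf4 and Ebf1. The 4 called are among the 9, which follows from their lack of overlap between genotypes. The shares of all kept probes are not given here, so these counts have no background beside them. Against the WT mean Zip13-KO 1 was higher by 1.35 for Pparg, 0.92 for Cebpa, 0.95 for Klf15 and 0.62 for the called Zfp423 probe. With the column as a term in the limma fit these are the changes estimated, and 0 member probes were called, with adjusted p from 0.0829 for Pparg to 0.154 for Klf15 among those 4. Over all probes that fit called 4 higher and 31 lower, and the part of the slide position in the changes was not tested otherwise.

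Markers of several cell types moved with the genotype in these pieces of tissue. The summed linear signal of the 8 adipocyte markers ran from 512700 to 630100 in WT and from 697900 to 723400 in Zip13-KO samples, with WT 1 the lowest. All 8 had a change above 0, from 0.03 for Cfd to 1.07 for Lep, with a median of 0.52, and 1, Lipe, was called higher. In bulk tissue, fewer cells of a type and less RNA per cell cannot be told apart. All 8 thermogenic adipocyte markers were above 0, from 0.93 for Prdm16 (limma adjusted p = 0.0533, not called) to 5.16 for Ucp1, and the other 7 were called higher. The sum of the 8 ran from 34310 to 56040 in WT and from 150900 to 230800 in Zip13-KO samples. Of 12 macrophage markers 9 were called lower, and the 12 ran from -2.57 for Fcgr1 to -0.17 for Itgam. The 3 Itgam probes ran from -1.37 to -0.17. Macrophage sums were 104200 to 172100 in WT against 48280 to 65060 in Zip13-KO samples.

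Among the other lists, 3 of 12 stromal progenitor markers were called lower, and the 12 ran from -1.37 for Ly6a to -0.27 for Pdgfrb. Stromal progenitor sums were 232700 to 482600 in WT and 198400 to 243100 in Zip13-KO samples. Of 10 endothelial markers 4 were called higher, and the 10 ran from 0.13 for Kdr to 0.92 for Flt1. The 2 Kdr probes gave 0.13 and 0.80. Endothelial sums were 14610 to 17380 in WT against 23640 to 24860 in Zip13-KO samples. Of 12 lymphocyte markers limma called 0, with 8 lower at an unadjusted p under 0.05 and 0 called by the methods' t-test, and with changes from -0.57 for Lck to -0.04 for Cr2 and sums of 69140 to 84960 against 53350 to 57280. The 10 tested markers of skeletal muscle and the 7 of mammary epithelium had 0 calls by limma or by the methods' t-test, with 1 gene of each list at an unadjusted p under 0.05, and their sums overlapped. All tested markers of every list were above background in all samples but Elovl3 on 1 WT array and Epcam on all 3 Zip13-KO arrays. The part of these cell types in the changes of the adipogenic factors was not tested, apart from the scale that follows.

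**Figure D2:**
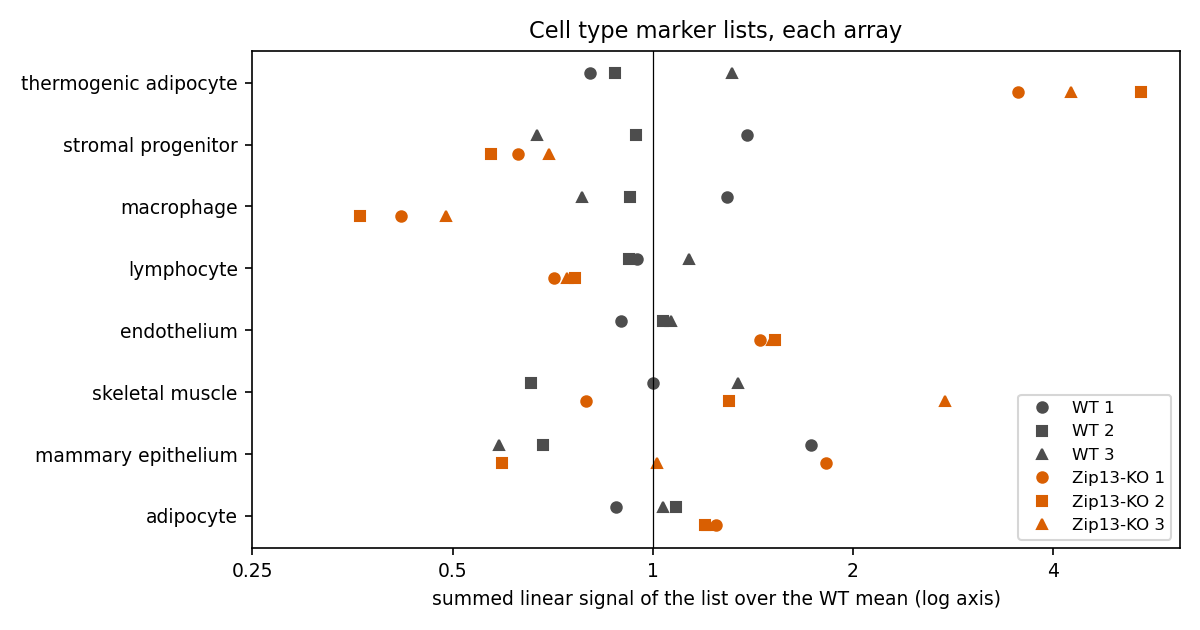
Summed linear signal of each cell type marker list on each array over the mean of the 3 WT arrays, on a log axis, with WT in grey, Zip13-KO in orange and the replicate number as the symbol. Adipocyte, thermogenic adipocyte and endothelial sums are higher on all 3 Zip13-KO arrays, macrophage and lymphocyte sums are lower, and the other 3 lists overlap.

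Each factor was therefore also set against the adipocyte markers of the same array, a scale chosen after the data were seen. The median log2 signal of the 8 markers was 15.55, 15.98 and 15.89 in WT samples and 16.33, 16.31 and 16.34 in Zip13-KO samples. On every array it lay midway between Cidec and Pnpla2, so these genes alone set its value. Their changes were 0.54 and 0.50, while the 8 ran from 0.03 for Cfd to 1.07 for Lep. The median differed by 0.52 between genotypes and was taken off every probe before the same fit. This lowered every change by 0.52, also that of a probe that did not differ between genotypes. On this scale Pparg was still called higher, at 0.61 (SE 0.19, limma adjusted p = 0.0278). The changes of Klf15 (0.55, adjusted p = 0.0542) and Cebpa (0.30, adjusted p = 0.137) kept all Zip13-KO samples above all WT samples without being called. The 3 Zfp423 probes, at 0.16, 0.01 and 0.01, the first Rxra probe, at 0.02, and Gata2, at 0.03, had genotypes that overlapped, with adjusted p from 0.399 to 0.974. Klf4 (-0.996, adjusted p = 0.0172), Cebpd (-0.61, adjusted p = 0.0203) and Ebf1 (-0.58, adjusted p = 0.0322) were called lower. Klf5 (-0.46, adjusted p = 0.0387) was lower by less than the fold threshold, and in these 4 every Zip13-KO sample was below every WT sample. Before the markers were taken off, Cebpd, Ebf1 and Klf5 had changes between -0.09 and 0.06. The shares of all kept probes that were called or did not overlap on this scale are not given here, so these counts have no background beside them. The second Rxra probe, at -0.51 (adjusted p = 0.0681), did not pass the test, and its genotypes overlapped. The ratio shows unequal change only. All 8 markers also stand on the list of adipocyte target genes below, so that the scale shares its genes with the products of these factors.

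**Figure D3:**
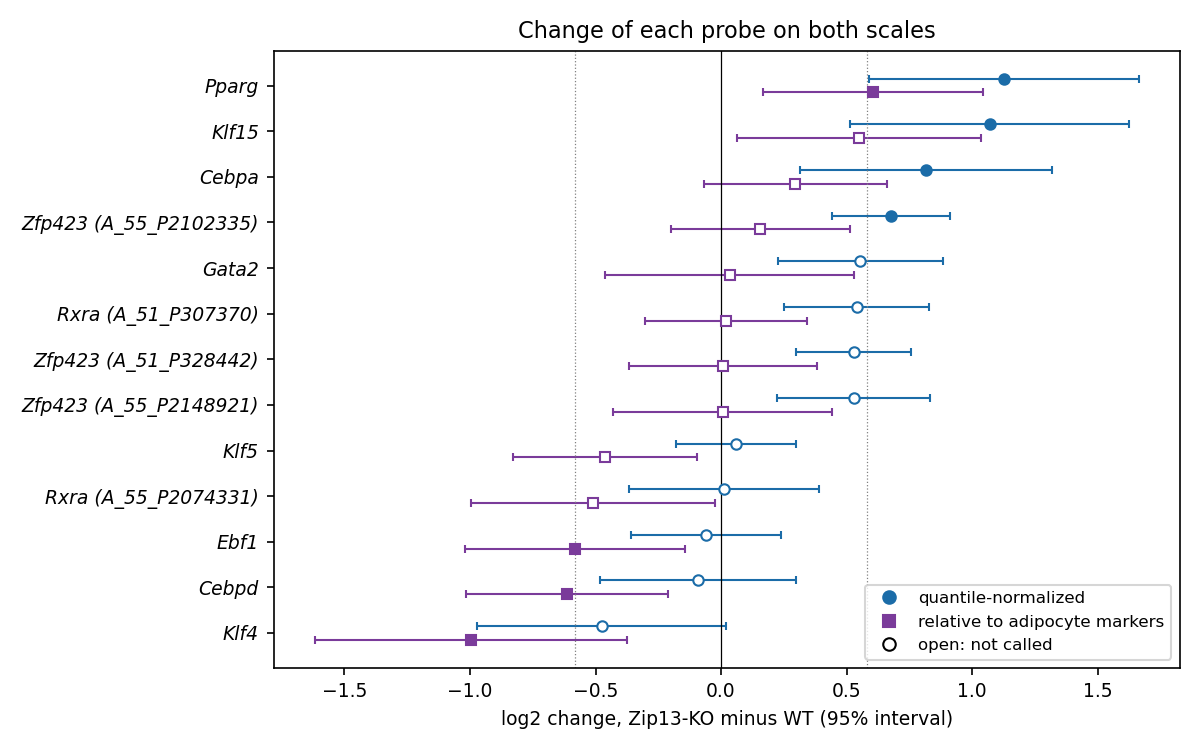
Change of each probe between genotypes with its 95% interval, on the quantile-normalized scale (circles) and relative to the median of 8 adipocyte markers on the same array (squares), filled where called and with dotted lines at the fold threshold of 0.58. Pparg is filled on both scales, and Cebpd, Ebf1 and Klf4 are filled, to the left, only on the scale of the adipocyte markers. On that scale every change is lower by 0.52.

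Other regulators of the same pathway were taken from lists by 1 probe per gene, the brightest, and over all 15307 genes 10% were called higher and 7.94% lower, with a median change of -4e-04. Of 17 further promoting regulators 2 were called higher, 0 were called lower and 12 were above 0, with a median of 0.39. The called ones were Ebf3, a relative of Ebf1, which rose by 0.99 (SE 0.10, limma adjusted p = 0.00728), and Zfp467, a zinc finger protein that favours fat over bone, which rose by 0.85 (SE 0.15, adjusted p = 0.014). The list ran from -0.68 for Egr2 (adjusted p = 0.325) to 1.29 for Srebf1 (adjusted p = 0.0507), the activator of lipogenic genes, neither called. Ebf3 read 10.42, 10.55 and 10.58 in WT and 11.63, 11.49 and 11.38 in Zip13-KO samples, so that it differed where Ebf1 overlapped. Cebpb, singled out after its values were seen, changed by 0.46 (SE 0.10, adjusted p = 0.0215), under the fold threshold, with 12.33, 12.38 and 12.47 in WT and 12.76, 12.99 and 12.80 in Zip13-KO samples.

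At an unadjusted p under 0.05, 9 promoting regulators were higher and 2 lower, and the methods' t-test called 2 higher and 0 lower. Of all 33039 kept probes that t-test called 2813 higher and 2418 lower. The share of all genes at the unadjusted limma p is not given here, for this list or those that follow. Among 15 restraining regulators 0 were called higher and 1, Runx2, the master factor of bone, was called lower, with a median of -0.07 and Hes1 the highest at 0.36, and 0 were higher at an unadjusted p under 0.05 or by the methods' t-test. Runx2 passed the filter through its WT arrays alone and was not well above background on any of the Zip13-KO ones, so its fitted change of -1.58 (adjusted p = 0.0192) rests on values under background. Its bound, at least 1.48-fold lower in Zip13-KO samples, is under the fold threshold, and with all 6 arrays required to be above background the list had 0 calls. Of 11 cofactors 0 were called in either direction by limma or by the methods' t-test, and 1 was higher and 3 were lower at an unadjusted p under 0.05. They ran from -0.45 for Ncoa3 (adjusted p = 0.013, under the fold threshold) to 0.36 for Sirt1. Of 30 paralogs of the factors 27 were tested, without Klf1, Klf14 and Klf17. Here 2 were called higher and 0 lower, with a median of -0.03, and 7 were higher and 2 lower at an unadjusted p under 0.05, with 2 higher and 0 lower by the methods' t-test. Ppara, the receptor of fatty acid oxidation, rose by 2.03 (SE 0.33, adjusted p = 0.0116), from 8.99, 9.56 and 10.16 in WT to 11.57, 11.98 and 11.25 in Zip13-KO samples, and its probes ran from 0.99 to 2.36. The other was Ebf3, which both lists hold, and Cebpe was the lowest at -1.23 (adjusted p = 0.0726).

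Genes that PPARγ and C/EBPα are known to drive in adipocytes form the last list. Of 26 such targets 25 were above 0, 13 were called higher and 0 lower, with a median of 0.90. In 23 all Zip13-KO samples were above all WT samples, as for 24.9% of all kept probes. Among the called genes were Cd36, Pck1, Lipe, Acsl1, Gpd1, Slc2a4, Aqp7, Agpat2, Dgat1, Gk, Fasn and Scd1, and the calls ran from 0.71 for Pck1 to 1.74 for Fasn (SE 0.34, limma adjusted p = 0.0177). Slc2a4, the gene of GLUT4 and a target of KLF15, rose by 1.08 (SE 0.29, adjusted p = 0.0396). Angptl4 was the lowest at -0.05 (adjusted p = 0.819). The 13 calls became 2 without Zip13-KO replicate 1, 2 without replicate 2 and 5 without replicate 3. At an unadjusted p under 0.05, 22 targets were higher and 0 lower, and the methods' t-test called 13 higher and 0 lower. This list includes all 8 adipocyte markers.

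**Figure D4:**
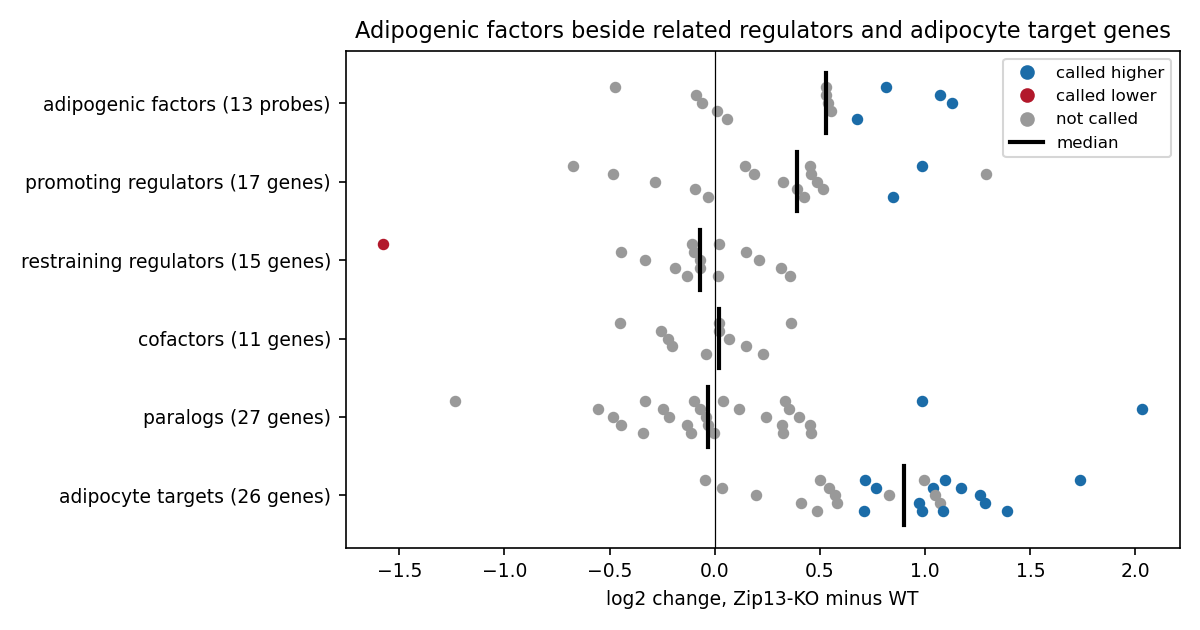
Change of each gene between genotypes for the 13 probes of the adipogenic factors and for 5 lists of related genes, with genes called higher in blue, called lower in red and not called in grey, a bar at the median of each list, and Runx2, the gene called lower, at a fitted change that rests on Zip13-KO values under background. The medians are 0.53 for the adipogenic factors, 0.39 for promoting regulators, -0.07 for restraining regulators, 0.02 for cofactors, -0.03 for paralogs and 0.90 for adipocyte targets.

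Over the 6 arrays, the genes whose signal ran most nearly parallel to a factor were found by Pearson's r among genes with a kept probe. The factors of the group were left out of this search, so how they run with each other is not shown. It is a description in which the 6 points share the step between genotypes. For Pparg they were Lmtk3 and Colgalt2 (r = 0.998 for each), for Cebpa Nudt13 (0.999) and Pgm1 (0.999), and for Klf15 Gper1 (0.998) and Insig2 (0.997). For Zfp423 they were Ssbp3 (0.999) and Serhl (0.997), and for Rxra Mrps30 (0.9997) and Mipol1 (0.999). Gata2 ran with Vta1 (0.992) and Lmnb2 (0.991), and Klf4 with Akr1c18 and Rgs17 (0.996 for each). Cebpd ran with Rchy1 and Ppm1g (0.994 for each), Klf5 with Tesk2 (0.983) and 4930577N17Rik (0.965), and Ebf1 with Fkbp1a (0.983) and Rec8 (0.976). None of these 20 genes is on a list above.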

How the data were processed

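Total RNA of 3 WT and 3 Zip13-KO samples of iWAT was labelled with Cy3 and hybridized to Agilent SurePrint G3 Mouse GE 8x60K arrays, 1 sample per array. The authors deposited the output of Feature Extraction 11.5.1.1, in which the processed signal is an intensity with background subtracted and spatial trends removed, not normalized between arrays, and which carry another column that marks each spot as well above background or not. They also deposited a table of log2 values, the raw median signal after quantile normalization by the authors, used here as an alternative.

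Control and outlier spots were left out, log2 processed signals were averaged over the spots of a probe, and the 55681 probes were quantile normalized. A probe was kept if it had a value on all arrays and rose well above background on each of the 3 arrays of WT, of Zip13-KO or of both, a filter that 33039 probes passed. Symbols came from RefSeq transcripts of GRCm38.p6 and named 28331 probes, accessions being matched without version. The design was annotated on mm9, so no probe position is given. Genotypes were compared over all kept probes by the lmFit and eBayes functions of limma 3.58.1 under R 4.3.3. This fit stands in for the integrative test of the study, which joins t-test and median-ratio p-values in a way not spelled out in the sources used here, and the t-test and the difference of medians were run as alternatives. Fits were tested on simulated data, where 54 of 100 probes with a true log2 change of 1 were called. With a true change of 2, 81 of 100 were called, and with none, 8 of 32839. Figures were drawn with matplotlib 3.10.9.

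The factors and all gene lists were chosen with earlier results of these data known. The genes named are every factor with every probe, Slc39a13, and the called and the extreme genes of each regulator list. Also named are the extreme genes of each marker list and the 2 genes outside the group most parallel to each factor. The counts of the target list include a called gene that is not reported here. For a probe not above background in a genotype, a bound was set from each array's dimmest probe that passed the background test. Alternatives covered scaling, background correction, filter, probe choice, test, thresholds, replicate block, slide column and leaving out each array. The number of arrays limits the precision.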

Additional observations from a re-analysis of the deposited data

How the results depend on the processing

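Over the 13 probes, 4 were called higher. The number was 2 without the filter, 1 by the adjusted t-test of the methods, 1 at an adjusted p under 0.01, 8 with no fold threshold, 2 with the replicate block, 0 with the slide column as a term and 1 relative to the adipocyte markers, a scale added after the data were seen. It was 1 to 6 without single arrays, with 2 (Zfp423 and Gata2) without Zip13-KO replicate 1 and 1 (Zfp423) without replicate 3. Called lower were 1, Klf4, without normalization between arrays and 0 to 1 without single arrays. Relative to the adipocyte markers, where every change is lower by 0.52, 3 were called lower. The same-numbered samples did not deviate together (correlations -0.036, 0.001 and -0.033). No pairing by replicate number showed in these values, which cannot show that there was none.

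The sign turned for probes near 0. Cebpd was 0.0371 with 75th percentile scaling and -0.219 to 0.0235 without single arrays. The second Rxra probe was -0.014 with that scaling, -0.23 without normalization, -0.18 with the slide column, -0.51 relative to the markers and -0.11 to 0.13 without single arrays. Klf5 was -0.15 without normalization, -0.0237 with normexp, -0.46 relative to the markers and -0.012 to 0.116 without single arrays, and Ebf1 was -0.144 to 0.0298.

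Of the lists, 2 promoting regulators called higher became 4 with 75th percentile scaling, 7 with no fold threshold, 1 at an adjusted p under 0.01, 0 with the slide column and 1 to 4 without single arrays. The 2 paralogs became 5, 1 and 0 with no fold threshold, at 0.01 and with the slide column. The 13 targets became 5 without the filter, 3 by the adjusted t-test, 0 at 0.01, 4 with the replicate block, 0 with the slide column and 2 to 13 without single arrays. Called lower without normalization were 1 promoting regulator, 1 cofactor and 2 paralogs, and 1 of each with no fold threshold, and 0 to 1 paralogs without single arrays. Runx2 was called 0 times with normexp, without background correction, with the deposited table, without the filter, with all 6 arrays required, by the adjusted t-test, at 0.01, with the replicate block and with the slide column, and 0 to 1 times without single arrays. The cause of these moves was not tested. The Slc39a13 call and the probe pair results kept direction and side of the threshold under all settings run. Slide and scan as a block were not run, since there is 1 of each. Without normalization the median of all probes was -0.22, and all probes had 1498 calls higher and 4999 lower against 2756 and 2353. Over all probes, an adjusted p under 0.01 gave 720 and 561, no fold threshold 4683 and 4173, the adjusted t-test 1557 and 1086, normexp 1830 and 1346, the deposited log2 values 2051 and 1554, the replicate block 1738 and 1506, the slide column 4 and 31, and single arrays left out 1365 to 2715 and 1113 to 2403.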
